A study of Mus musculus with 18 samples.

Results

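Macrophages are resident immune cells of the testis, and 10 genes that are widely used to recognise them were followed here in testes of repro9/repro9 mutant mice and wild-type mice. The genes are Csf1r, Cd68, Adgre1, Cd14, Mrc1, Lyz2, C1qa, C1qb, C1qc and Cd163. They were chosen as known macrophage genes, and every probe set annotated to one of them alone was used, which gave 14 probe sets. All 14 passed the filter on low signal, as did 34764 probe sets in all, which represented 15307 genes. Csf1r and C1qb were each read by 3 probe sets and the other genes by 1.

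The study profiled total RNA of whole testes on 18 Affymetrix arrays. There were 5 arrays of mutants and 3 of wild type at 14 days postpartum (dpp), and 5 arrays of each genotype at 17 dpp. The mutants were homozygous for repro9, an allele of Mybl1. The product of that gene, A-MYB, drives transcription in germ cells that have entered meiosis. The allele is carried in every cell of the mutants, no strain is given in the labels, and the sources do not say whether each array is a separate animal, so p-values measure the spread between arrays, which may be technical.

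In the testis, macrophages lie in the interstitium beside the steroid-making Leydig cells and around the walls of the seminiferous tubules. They depend on the growth factor CSF1 and its receptor, and they take up debris, make complement and, in part, present antigen. Dying germ cells inside the tubules are cleared mainly by Sertoli cells, not by macrophages. In whole-testis RNA, fewer cells of a type and less RNA per cell cannot be told apart, and a change in any abundant cell type moves the share of all others.

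The labels were checked with Mybl1 itself. At 17 dpp its signal was 83.4 to 293 in mutants and 1076 to 3959 in wild type (log2 difference −3.46 ± 0.45, limma adjusted p = 5.25e-05). At 14 dpp it was 68.1 to 249 in mutants and 512 to 775 in wild type (−2.33 ± 0.52, adjusted p = 0.112). By the ratio of β-actin signal at the 3' and the 5' end, which shows how complete the labelled RNA was, the arrays formed 3 unlabelled sets. Set 1 comprised 7 arrays, with replicates 1 and 2 of both genotypes at 14 dpp and, at 17 dpp, mutant replicates 1 and 2 beside wild-type replicate 1. Set 2 was made up of the remaining 4 younger arrays, 3 of mutants and 1 of wild type. Set 3 was made up of the remaining 7 older arrays, 3 of mutants and 4 of wild type. The β-actin ratio was 1.45 to 2.92 on sets 1 and 2 and 102.6 to 125.1 on set 3. Because several macrophage genes were much dimmer on set 3 in both genotypes, each comparison is also given with the set held fixed in the model and inside single sets.

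The transcription factor PU.1, encoded by Spi1, sets up the macrophage gene programme and binds purine-rich sites with the core GAGGAA. Since the 10 genes are read as a group below, the 250 bases before the annotated start of each gene were searched for this core on both strands. Windows from RefSeq (build GRCm38.p6) were matched for 6 of the 10 genes. The core was found in 4 of these, Cd68, Mrc1, C1qb and C1qc, and not in Lyz2 or Cd163. Over all 32851 windows of the same length, 23.25% held it, so a match describes these letters and is no evidence of binding. The 4 windows that hold the core are shown because they show where it lies in the genes of the group, 5′ to 3′ on the strand of the gene, with GAGGAA or its reverse complement TTCCTC in capitals. The window of C1qb is chr4:136886201-136886450 and that of C1qc chr4:136892915-136893164, both on the minus strand. The window of Cd68 is chr11:69666171-69666420 on the minus strand, and that of Mrc1 is chr2:14229164-14229413 on the plus strand.
C1qb: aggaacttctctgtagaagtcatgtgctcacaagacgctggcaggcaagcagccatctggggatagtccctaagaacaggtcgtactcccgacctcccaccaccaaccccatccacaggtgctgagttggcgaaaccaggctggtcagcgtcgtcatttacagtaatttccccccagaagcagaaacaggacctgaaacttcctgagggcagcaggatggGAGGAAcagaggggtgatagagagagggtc
C1qc: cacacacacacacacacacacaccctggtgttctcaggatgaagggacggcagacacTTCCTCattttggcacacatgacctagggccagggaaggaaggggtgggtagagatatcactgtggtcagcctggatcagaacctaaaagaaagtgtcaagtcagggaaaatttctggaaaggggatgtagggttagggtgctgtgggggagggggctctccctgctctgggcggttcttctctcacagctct
Cd68: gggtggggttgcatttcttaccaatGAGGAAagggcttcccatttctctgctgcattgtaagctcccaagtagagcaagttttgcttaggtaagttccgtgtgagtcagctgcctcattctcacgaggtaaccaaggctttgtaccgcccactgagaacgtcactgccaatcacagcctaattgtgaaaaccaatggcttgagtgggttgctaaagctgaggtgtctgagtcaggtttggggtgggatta
Mrc1: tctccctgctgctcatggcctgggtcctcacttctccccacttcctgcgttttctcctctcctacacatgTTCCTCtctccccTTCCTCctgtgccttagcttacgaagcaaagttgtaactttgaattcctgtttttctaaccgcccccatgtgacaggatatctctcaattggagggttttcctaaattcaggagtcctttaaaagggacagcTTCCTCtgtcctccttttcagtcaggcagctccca
The core began 30 bases before the start in C1qb, 193 in C1qc and 225 in Cd68. Mrc1 held it 3 times, beginning 180, 167 and 35 bases before the start, each time as TTCCTC.

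At 17 dpp the macrophage genes were higher in mutant testes, but most differences did not pass the test. All 10 log2 differences were positive, with a median of 0.96, and all 10 lay above the median of 0.25 over all probe sets. Csf1r rose 1.87-fold and was the 1 gene of 10 past the threshold (limma, adjusted p under 0.05 over all probe sets), beside 2.03% of all genes called higher. Cd68, Cd14 and Lyz2 had an unadjusted p under 0.05 as well, which makes 4 of 10 beside 24.6% of all genes. At 14 dpp none of the 10 was called.

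**Figure D1:**
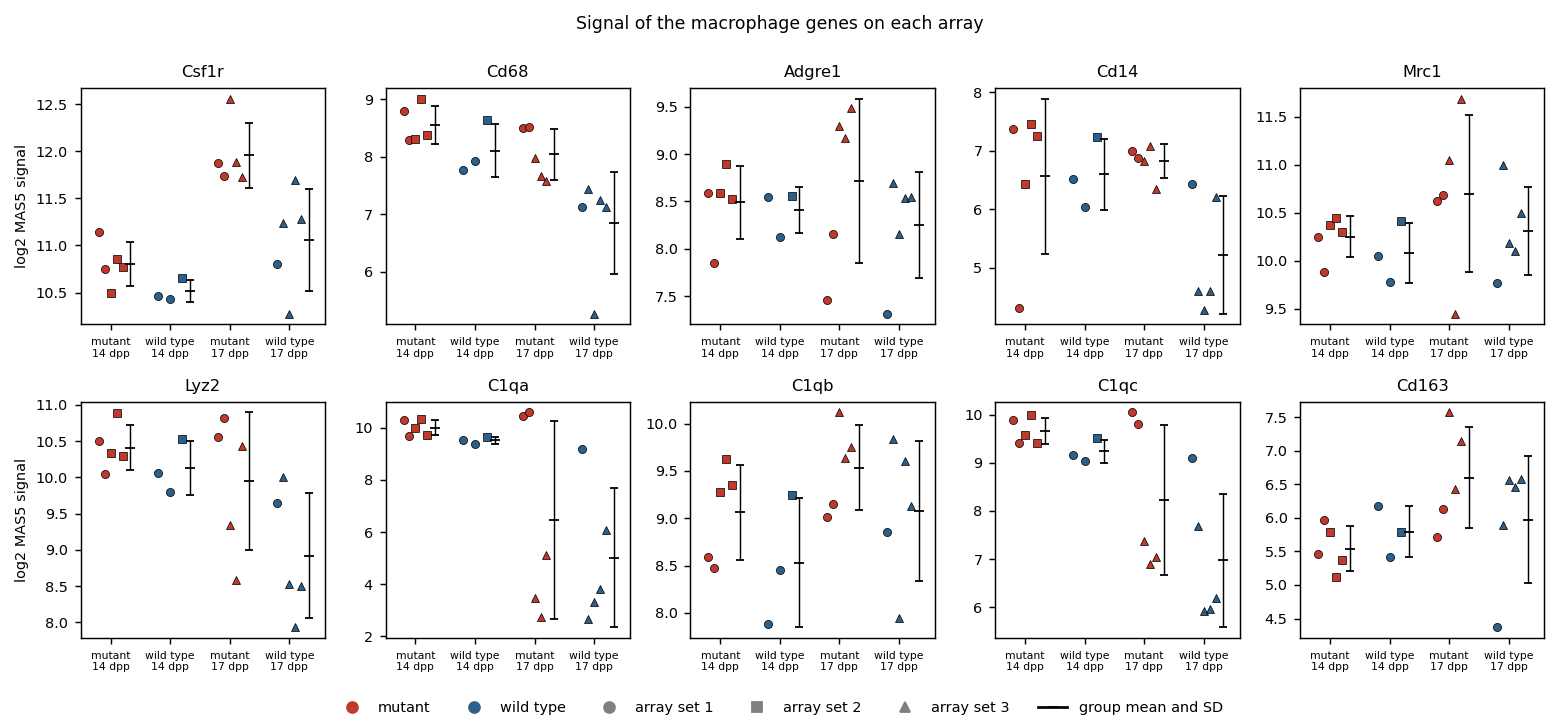
Log2 MAS5 signal (y axis) of each macrophage gene on every array, by its brightest probe set, for mutant and wild type at 14 and 17 dpp (x axis). Points are arrays, with the shape giving the array set, and bars give the group mean and SD. Csf1r and Cd68 do not overlap between mutant and wild type at 17 dpp, and C1qa and C1qc are low on the set 3 arrays of both genotypes.

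Csf1r encodes the receptor for CSF1 and IL-34, the signal on which macrophages depend. At 17 dpp its brightest probe set gave 3774, 3420.1, 6051, 3804 and 3385 in mutants, against 1789.98, 2413, 1239.9, 3315 and 2497 in wild type. The groups did not overlap, and the highest wild-type array lay just under the lowest mutant array. The log2 difference was 0.90 ± 0.25 (SE, limma, adjusted p = 0.0375). Its second probe set, with the suffix _s_at, gave 675, 883, 1003, 434 and 464 in mutants, against 368, 299.7, 207, 345 and 315 in wild type, again with no overlap. It was also called (1.12 ± 0.26, adjusted p = 0.0123). The third, the dimmest, gave 194 to 377 in mutants and 181 to 241 in wild type and was not called (0.42 ± 0.27, adjusted p = 0.427). The call of the brightest probe set was lost without mutant replicate 3 (0.75, adjusted p = 0.0949) and without wild-type replicate 3 (0.70, adjusted p = 0.106). It was also lost without mutant replicate 1 (adjusted p = 0.0586), wild-type replicate 2 (0.0573) or wild-type replicate 5 (0.0582), with the difference between 0.92 and 0.96. Leaving out a 14 dpp array changes only the estimate of the spread, and the call was lost in this way as well without mutant replicate 2, 4 or 5 or wild-type replicate 1 or 2 of 14 dpp (adjusted p of 0.0508 to 0.0526).

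**Figure D2:**
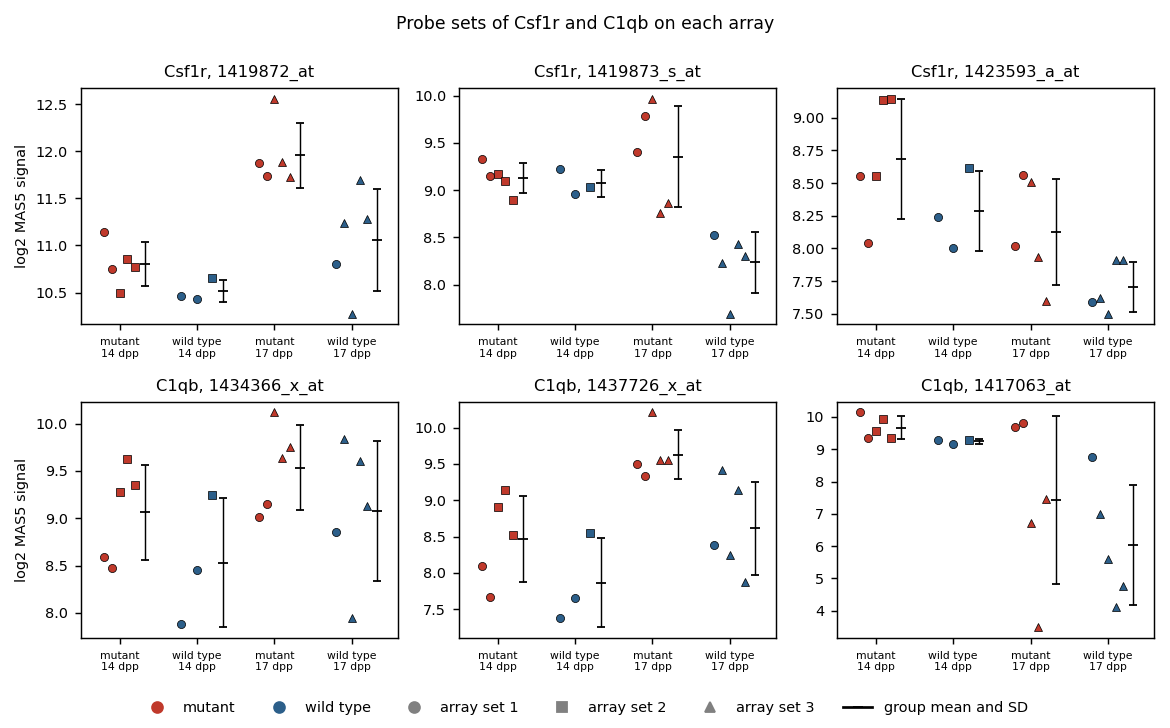
Log2 MAS5 signal (y axis) of the 3 probe sets each of Csf1r (upper row) and C1qb (lower row) on every array, for mutant and wild type at 14 and 17 dpp (x axis). Points are arrays, shapes give array sets and bars give group mean and SD. At 17 dpp 2 of the 3 Csf1r probe sets separate mutant from wild type, and the third C1qb probe set is lower on set 3 while the others are not.

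Cd68, a glycoprotein of macrophage lysosomes, and Adgre1, which encodes the surface antigen F4/80, are general macrophage genes. Cd68 gave 362, 366, 252, 203 and 192 in mutants at 17 dpp, against 139.7, 174, 38.6, 152 and 139 in wild type. The groups did not overlap. The difference of 1.21 ± 0.38 did not pass the threshold (limma adjusted p = 0.0739). It was called with the array set as a block, as given below, and without wild-type replicate 1 (1.28, limma adjusted p = 0.0481). That replicate is the 1 wild-type array of set 1 at 17 dpp, so without it genotype and array set were mixed. Without it 2347 of 34764 probe sets were called higher, against 513 over all arrays. Adgre1 gave 176, 286, 631, 575 and 720.2 in mutants and 159, 414, 285, 372 and 373 in wild type. These groups overlapped over all arrays (0.47 ± 0.38, adjusted p = 0.534), with the 2 lowest mutant arrays and the lowest wild-type array all on set 1. Of the 10 genes, Csf1r and Cd68 were the only 2 whose groups did not overlap with mutants higher, beside 2.05% of all genes.

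Cd14, the co-receptor through which macrophages sense bacterial lipopolysaccharide, had the largest difference of the 10. It gave 127, 118, 114, 136 and 81.1 in mutants at 17 dpp, against 86.1, 24.5, 19.5, 24.3 and 73.9 in wild type. The 5 mutant arrays lay close together, and 3 wild-type arrays of set 3 lay far below the rest. Cd14 was above its array's 40th percentile on all 5 mutant arrays and on 2 of 5 wild-type arrays, so much of the difference rests on dim wild-type values (1.60 ± 0.58, limma adjusted p = 0.126). It was called without wild-type replicate 1 (1.898, limma adjusted p = 0.0445). That is the 1 wild-type array of set 1 at 17 dpp, so without it genotype and array set were mixed. In that fit 2347 of 34764 probe sets were called higher, against 513 over all arrays.

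Mrc1, the mannose receptor CD206, and Cd163, which takes up haptoglobin with haemoglobin, are scavenger receptors typical of tissue-resident macrophages. Mrc1 gave 1576, 1646, 2119, 699 and 3299.9 in mutants, against 872, 2039.6, 1165, 1095 and 1446 in wild type. Both the lowest and the highest of these 10 arrays were mutants, and the difference was not called (0.39 ± 0.33, adjusted p = 0.553). Cd163 was dim, at 52.3, 70.4, 190.4, 86.1 and 141 in mutants and 20.6, 59.6, 94.5, 88.2 and 95.97 in wild type. Its groups overlapped (0.62 ± 0.47, limma adjusted p = 0.498), and 3 arrays of each genotype were above their 40th percentile.

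Lyz2 encodes the lysozyme of macrophages and neutrophils. It gave 1512, 1808, 649, 384 and 1377 in mutants at 17 dpp, against 799, 1024, 369, 244 and 362 in wild type. The groups overlapped, and the difference of 1.03 ± 0.43 was not called (limma adjusted p = 0.191). It was called without mutant replicate 4 (1.37, limma adjusted p = 0.0496) and with the replicate number as a block (adjusted p = 0.014). The replicate numbers were not taken as pairs at 17 dpp, where number 2 spans 2 array sets. With that block 1806 of 34764 probe sets were called higher, and 673 without mutant replicate 4, against 513 in the main model. Lyz1, a near-identical relative, has probe sets that may share RNA with Lyz2. The 2 Lyz1 probe sets with the suffix _x_at, which marks probes that can match other transcripts, differed by 0.95 (adjusted p = 0.131) and 1.25 (adjusted p = 0.0882). The third Lyz1 probe set differed by −0.16 (limma adjusted p = 0.953). It was dim, at 6.44 to 174 in mutants and 16.3 to 112 in wild type at 17 dpp. Over the arrays the first 2 correlated with Lyz2 at 0.77 and 0.59, and the third at −0.22. The signal of the 2 genes was not separated here.

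C1qa, C1qb and C1qc encode the 3 chains of C1q, the recognition part of the first complement component, which tissue macrophages make. The 3 genes lie together on chromosome 4. C1qa gave 1419.7, 1544, 11.1, 6.63 and 34.4 in mutants at 17 dpp, against 589, 6.32, 10.03, 14.1 and 67.5 in wild type. The first 2 mutant arrays and the first wild-type array are those of set 1, and on set 3 only 1 of 7 arrays was above its 40th percentile. The difference was 1.46 ± 1.40 (limma adjusted p = 0.61), with a 95% interval from −1.48 to 4.40, too wide to say more. C1qc behaved alike, with 1057, 890.1, 166, 120.2 and 131 in mutants against 546, 205, 61.1, 62.5 and 73.1 in wild type (1.26 ± 0.65, adjusted p = 0.30).

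C1qb was read by 3 probe sets that did not share 1 pattern over the arrays. The brightest gave 518, 568, 1111, 797 and 865 in mutants, against 461, 918, 248, 781 and 559.5 in wild type (0.46 ± 0.37, limma adjusted p = 0.533). The second gave 644 to 1185 in mutants and 234 to 681 in wild type (1.02 ± 0.35, adjusted p = 0.11). The third gave 823, 898, 105, 11.2 and 174 in mutants against 429.9, 126, 49.1, 17.2 and 27.2 in wild type (1.38 ± 0.97, adjusted p = 0.465). Over the 18 arrays the first 2 correlated at r = 0.84, while their correlations with the third were −0.29 and −0.25. With each array set's mean removed, these became 0.80 between the first 2 and 0.23 and 0.32 with the third. The third resembled C1qa and C1qc in being low on set 3.

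**Figure D3:**
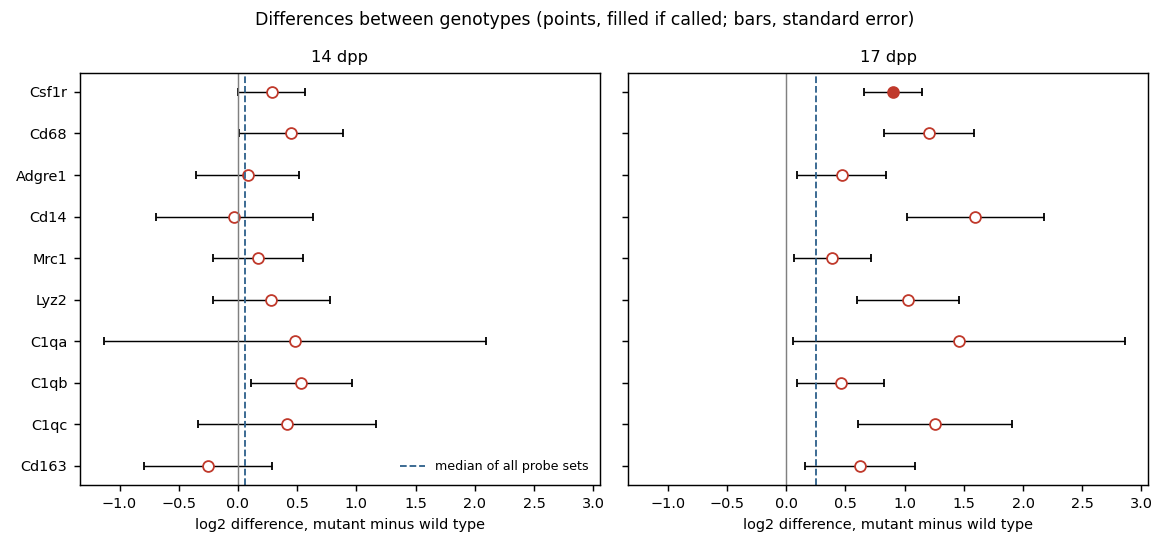
Log2 difference, mutant minus wild type (x axis), of each macrophage gene at 14 dpp (left) and 17 dpp (right). Points are limma estimates, filled where the adjusted p is under 0.05, bars are standard errors and the dashed line is the median over all probe sets. At 17 dpp all 10 points lie right of that line and 1, Csf1r, is filled.

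Levels on set 3 were also set directly against those on set 1, among the 17 dpp arrays. Both genotypes were pooled, and wild type made up more of set 3 than of set 1, so genotype enters these differences. C1qa was lower on set 3 (log2 difference −6.20), as were the third C1qb probe set (−3.83) and C1qc (−2.92), beside a median of −0.14 over all probe sets. The brightest C1qb probe set was higher on set 3 (0.43) and the second differed by 0.07, so C1qb was not low there by every probe set. Lyz2 (−1.30), Cd14 (−1.06) and Cd68 (−0.86) were also lower there. Adgre1 (1.196) and Cd163 (1.26) were higher. By the brightest probe sets, Csf1r (0.05) and Mrc1 (0.21) gave the smallest pooled shifts of the 10 genes. The _s_at probe set of Csf1r was lower on set 3 (−0.63), and its dimmest differed by −0.20.

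With the array set as a block, 3 of the 10 genes were called higher at 17 dpp, beside 14.4% of all genes. Csf1r differed by 0.96 ± 0.22 (limma adjusted p = 0.00581), Cd68 by 1.09 ± 0.35 (adjusted p = 0.0351) and Adgre1 by 0.74 ± 0.21 (adjusted p = 0.0177). All 10 differences stayed positive, with a median of 0.77 beside 0.24 over all probe sets. C1qa then differed by 0.23 ± 0.54 (adjusted p = 0.805) and C1qc by 0.71 ± 0.28 (adjusted p = 0.0918). Cd14 (1.46, adjusted p = 0.061), Cd163 (0.92, adjusted p = 0.0856) and Lyz2 (0.81, adjusted p = 0.113) were not called either, nor were Mrc1 (0.45) and C1qb by its brightest probe set (0.57). The second C1qb probe set did pass the threshold (1.08 ± 0.26, adjusted p = 0.00808).

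Within set 1 each of the 10 genes was higher on both mutant arrays than on the 1 wild-type array at 17 dpp, where 54% of all genes were. The median difference there was 0.94, and none was called, beside 0.235% of all genes called higher. Within set 3, with 3 mutant and 4 wild-type arrays, Csf1r (0.94 ± 0.27, limma adjusted p = 0.038) and Adgre1 (0.84 ± 0.26, adjusted p = 0.0449) were called by their brightest probe sets, beside 7.16% of all genes. The second C1qb probe set passed there too (1.10 ± 0.33, adjusted p = 0.0439), and the brightest did not (0.71, adjusted p = 0.197). On these arrays the groups of Csf1r, Cd68, Adgre1 and Cd14 did not overlap, which is 4 of 10 beside 10.1% of all genes. C1qa was lower in mutants within set 3 (−0.20 ± 0.65), with values near the dim end of the array in both genotypes. Without the set 3 arrays, only the set 1 arrays were left at 17 dpp, with 1 wild-type array. The differences of Csf1r (1.01) and C1qa (1.33) were then the same as within set 1. Calls of that fit at 17 dpp are not given, because the wild type was left with 1 array.

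**Figure D4:**
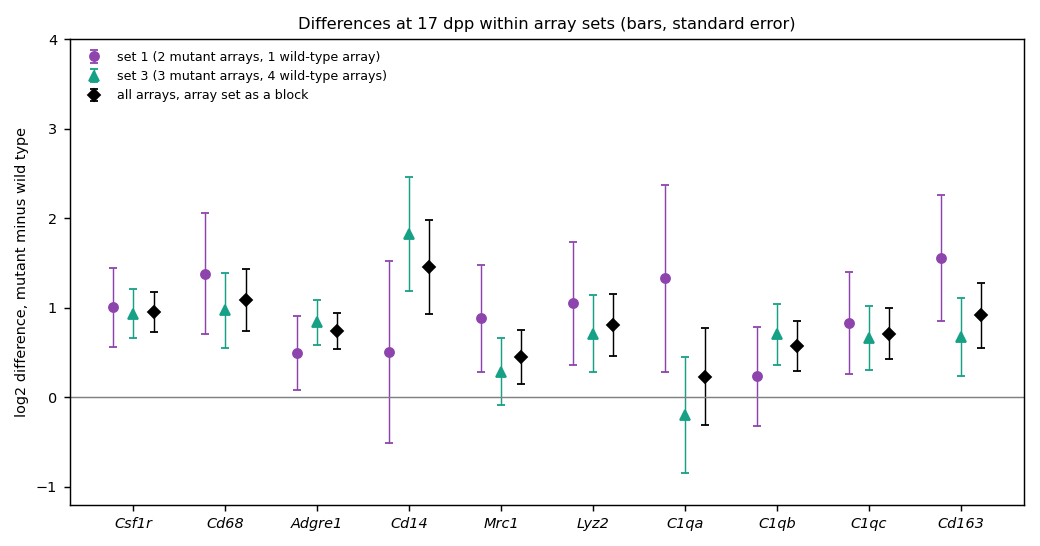
Log2 difference at 17 dpp, mutant minus wild type (y axis), of each macrophage gene (x axis) within array set 1, within array set 3 and with the array set as a block. Points are limma estimates and bars standard errors. Csf1r gives 1.01, 0.94 and 0.96 in the 3 estimates, while C1qa gives 1.33 within set 1 and −0.20 within set 3.

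The values of all genes were not centred alike between the groups. The median difference over all probe sets at 17 dpp was 0.25 as deposited and 0.11 with each array scaled to a common median or quantile-normalized. The median of the macrophage genes was then 0.82 under both, and all 10 stayed positive. Csf1r was not called under these scalings (0.76 with adjusted p = 0.108, and 0.82 with adjusted p = 0.0591).

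At 14 dpp the differences were smaller and none was called, beside 0% of all genes called higher and 0.32% called lower by limma. None of the 10 had an unadjusted p under 0.05, beside 2.4% of all genes. The median difference was 0.28, beside 0.06 over all probe sets, and 8 of 10 were positive. Csf1r gave 2259, 1718, 1444, 1855 and 1752 in mutants, against 1411, 1382 and 1613 in wild type (0.29 ± 0.28). The groups overlapped by 1 mutant array. Cd68 gave 445, 312, 316, 518 and 332 in mutants, against 217, 243 and 398 in wild type (0.45 ± 0.44), with the highest wild-type array on set 2.

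C1qa was the gene whose groups did not overlap at 14 dpp, 1 of 10 beside 2.26% of all genes. It gave 1251, 824, 1019, 1289 and 854 in mutants, against 749, 668 and 805 in wild type. Its difference was 0.48 ± 1.61 in the fit over all arrays, whose standard error includes the spread at 17 dpp. Without the set 3 arrays the difference was 0.48 ± 0.17 (unadjusted p = 0.0172 by limma, adjusted p = 0.488). With only the 14 dpp arrays in the fit it was 0.48 ± 0.18 (unadjusted p = 0.0243, adjusted p = 0.596). The third C1qb probe set also did not overlap, with 645 to 1128 in mutants and 573 to 628 in wild type. C1qc gave 953, 680.3, 766, 1012 and 676 in mutants, against 574, 525 and 729 in wild type (0.42 ± 0.75). Its unadjusted p was 0.0408 without the set 3 arrays and 0.0495 with only the 14 dpp arrays, by limma, so 2 of the 10 genes were under 0.05 in these fits and neither was called. The brightest C1qb probe set gave 357 to 789 in mutants and 237 to 609 in wild type (0.53 ± 0.43).

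Values of the other genes overlapped between the genotypes at 14 dpp. Lyz2 gave 1056 to 1895 in mutants and 889 to 1477 in wild type (0.28 ± 0.49). Mrc1 gave 945 to 1394 in mutants and 880.2 to 1359 in wild type (0.17 ± 0.38). Adgre1 gave 231 to 475 in mutants and 279 to 376 in wild type (0.08 ± 0.43), with a sign that turned in several settings. Cd14 gave 166, 19.9, 86.4, 176 and 153 in mutants, against 92.1, 65.4 and 151 in wild type (−0.03 ± 0.67). Without mutant replicate 2, its dimmest array, the difference was 0.53. Cd163 gave 34.9 to 62.5 in mutants and 42.7 to 72.2 in wild type (−0.25 ± 0.54), and 1 of these 8 arrays was above its 40th percentile.

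Within set 1, 5 genes did not overlap at 14 dpp with mutants higher (Csf1r, Cd68, C1qa, C1qb and C1qc), beside 22.1% of all genes. Within set 2, C1qa and C1qb did so, beside 28.9% of all genes, and Cd163 was lower, beside 28.3%. The median difference was 0.35 within set 1 and 0.01 within set 2, where the wild type had 1 array.

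Whether the genotype difference itself changed with age was tested by the interaction. None of the 10 genes was called, beside 0% of all genes called higher and 0.359% called lower by limma. At an unadjusted p under 0.05 the count was also 0 of 10, beside 7.66% of all genes. The difference was larger at 17 dpp for 9 of 10, with a median change of 0.75 beside 0.16 over all probe sets. Csf1r changed by 0.61 ± 0.37 (adjusted p = 0.963), with a 95% interval from −0.17 to 1.40, and Cd14 by 1.63 ± 0.88 (adjusted p = 0.938). C1qb by its brightest probe set was the exception (−0.07 ± 0.56), while its other probe sets gave 0.41 and 0.97. The _s_at probe set of Csf1r changed by 1.06 ± 0.39 (limma unadjusted p = 0.0143, adjusted p = 0.627) and its dimmest by 0.02.

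Across the 4 groups, the geometric mean signal of the brightest Csf1r probe set was highest in mutants at 17 dpp (3985). Wild type at 17 dpp (2135), mutants at 14 dpp (1787) and wild type at 14 dpp (1465) followed. Neighbours among the last 3 overlapped. By the other Csf1r probe sets wild type at 17 dpp was lowest, at 301 for the _s_at probe set and 209 for the dimmest. In wild type both were lower at 17 than at 14 dpp without overlap (−0.84 and −0.58), and neither was called. Between ages, the brightest Csf1r probe set was higher at 17 than at 14 dpp in mutants (1.16 ± 0.25, limma adjusted p = 0.0267), 1 of 10 beside 0.647% of all genes. The other Csf1r probe sets gave 0.23 and −0.56, neither called, and with array set in the model it was 0.95 (adjusted p = 0.173). It was not called without mutant replicates 3 (adjusted p = 0.0957), 4 (0.0785) or 5 (0.0868) of 14 dpp, or without mutant replicates 3 (0.0788) or 4 (0.052) of 17 dpp.

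The geometric mean of Cd68 was highest in mutants at 14 dpp (376), followed by wild type at 14 dpp (276), mutants at 17 dpp (265) and wild type at 17 dpp (115). Neighbours among the first 3 overlapped. In wild type, Cd68 (−1.27 ± 0.44, limma adjusted p = 0.0463) and C1qc (−2.26 ± 0.75, adjusted p = 0.0407) were lower at 17 than at 14 dpp, 2 of 10 beside 18.9% of all genes. Neither was called with the array set as a block (−0.69, adjusted p = 0.457, and −0.01, adjusted p = 0.99). Each also lost its call without any 1 of the 3 wild-type arrays of 14 dpp (adjusted p of 0.0885 to 0.184) and without any 1 of the 5 mutant arrays of 14 dpp (0.0503 to 0.0581), which enter only the estimate of the spread. The call of Cd68 was lost without wild-type replicate 3, 4 or 5 of 17 dpp (0.0537 to 0.0848) or mutant replicate 3 of 17 dpp (0.0505), and that of C1qc without replicate 2, 3, 4 or 5 (0.0513 to 0.0912). When wild-type replicate 1 of 17 dpp was left out, the array of set 1, Lyz2 (−1.39, adjusted p = 0.0384) and C1qa (−5.56, adjusted p = 0.00812) were called lower. In that fit 9546 of 34764 probe sets were called lower, against 5750 over all arrays. C1qa was called lower in wild type as well without mutant replicate 1, 2, 3 or 4 of 17 dpp (limma adjusted p of 0.0322 to 0.0464). It was also called lower with the stricter filter (0.0443) and with an offset of 50 (0.0455). Lyz2 was called lower without mutant replicate 4 (0.0474). Without 1 of these mutant replicates, 6056 to 6988 of 34764 probe sets were called lower. The stricter filter called 6176 of 23687 lower, and the offset 6572 of 34764. In mutants C1qa was called lower without replicate 1 (−4.53) or 2 (−4.56) of 17 dpp, also set 1 arrays, and C1qc without replicate 1 (−1.88, adjusted p = 0.0443). These fits called 5392 and 4951 of 34764 probe sets lower in mutants, against 520 over all arrays. Adgre1 was the 1 gene called with the block (−1.13 ± 0.30, adjusted p = 0.0289), beside 4.56% of all genes called lower. On set 1, the only set with both ages, Adgre1 gave 159 on the wild-type array of 17 dpp and 373 and 279 on those of 14 dpp. C1qa in wild type differed by −4.51 over all arrays and by −0.26 within set 1. The median age difference over all probe sets was −0.34 in mutants and −0.44 in wild type as deposited, and −0.01 in mutants and −0.08 in wild type with each array scaled to a common median. Under that scaling the brightest Csf1r probe set was called higher with age in both genotypes (1.49 in mutants and 0.90 in wild type, limma adjusted p = 0.00903 and 0.0495). Cd68 (−0.91) and C1qc (−1.91) were not called in wild type. With this scaling 1395 of 34764 probe sets were called higher with age in mutants and 2401 in wild type, against 147 and 1688 as deposited.

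As a description, the macrophage genes were set against each other over the 18 arrays after each array set's mean was removed. The correlation of each gene with the mean of the other 9 ran from 0.29 (C1qa) to 0.78 (Cd68). Csf1r gave 0.75 and Cd163 0.38. Without that removal the correlations ran from −0.43 (Cd163) to 0.89 (Cd68), with Csf1r at −0.04 and Adgre1 at −0.09. The arrays share genotype, age and scaling, so these values are no test. The 10 genes most like the mean of the group were Ptn (r = 0.93), Ctsc (0.91), Sap130 (0.91), Penk (0.89), Ctsh (0.89), Ppp1r3c (0.89), F13a1 (0.89), Ptger2 (0.89), Selenop (0.88) and Rab4a (0.88). Ctsc and Ctsh encode lysosomal proteases, and F13a1 the A chain of coagulation factor XIII, which macrophages make. Penk encodes an opioid precursor and Ptn a growth factor. Without removing set means, the ranking changed and Penk was the 1 gene in both top 10 lists, with Tmem176b (0.93) first.

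The other genes of the pathway were taken from 13 lists, written down with the 10 genes above. At 14 dpp no gene of these lists was called by limma, beside 0% of all genes called higher and 0.32% called lower. Of 23 tested other macrophage and myeloid genes, none was called at 17 dpp by limma, 8 had an unadjusted p under 0.05, beside 24.6% of all genes, and 21 were positive. Their median difference was 0.71, beside 0.26 over all genes. Aif1, which encodes the macrophage protein IBA1, had the largest difference, with 65.6 to 215 in mutants and 3.08 to 152 in wild type (2.14 ± 0.82, adjusted p = 0.153). Laptm5, a lysosomal membrane protein of blood cells, had the lowest p, with 339.6 to 687 in mutants and 132 to 325 in wild type (1.002, adjusted p = 0.0582). With the array set as a block, Tyrobp, Laptm5, Ctss, Cd86 and Cybb were called higher and the Fc receptor gene Fcgr3 lower (−1.11, adjusted p = 0.0146), beside 14.4% of all genes called higher and 11.4% called lower. These 6 were named after their values were seen.

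**Figure D5:**
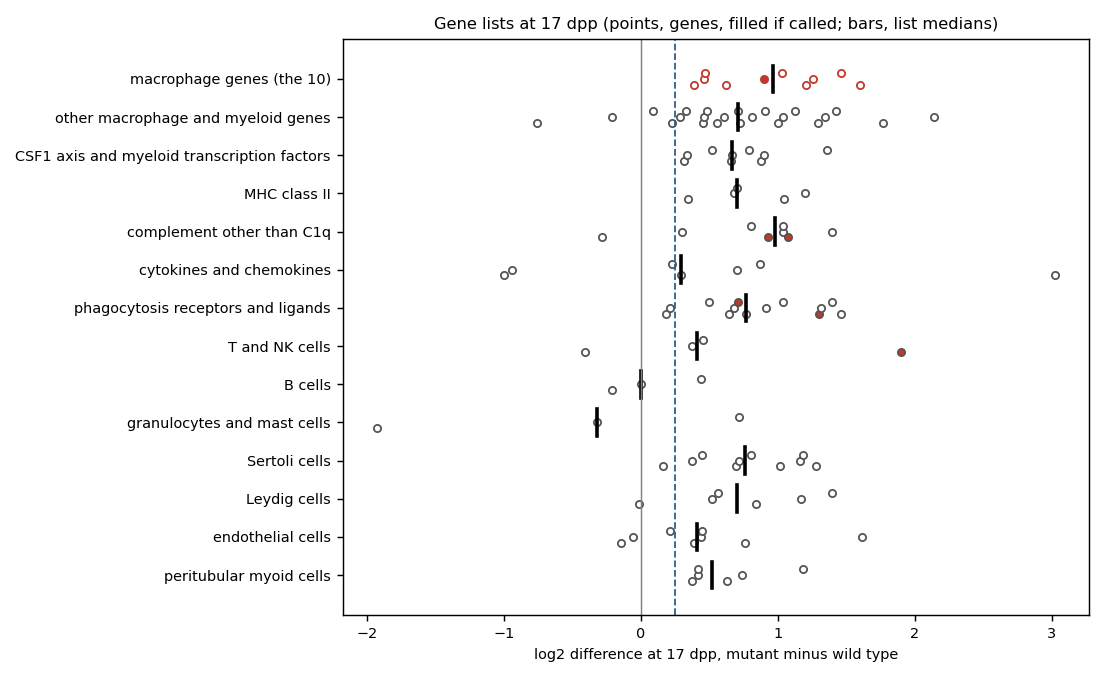
Log2 difference at 17 dpp, mutant minus wild type (x axis), of the genes of each list (y axis). Points are genes, filled where the limma adjusted p is under 0.05, thick bars are list medians and the dashed line is the median over all probe sets. The medians of the macrophage genes (0.96), complement genes (0.98), phagocytosis genes (0.77) and Sertoli genes (0.76) lie right of that line, as do those of most other lists. Those of B cells and of granulocytes and mast cells lie left of it.

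Of the CSF1 axis and myeloid transcription factors, 9 genes were tested, all were positive (median 0.67) and none was called at 17 dpp. Csf1 itself, the ligand of Csf1r, gave 215 to 441 in mutants and 162 to 278 in wild type. Spi1, which encodes PU.1, gave 59.9 to 283 in mutants and 9.95 to 101 in wild type (1.36 ± 0.54, limma adjusted p = 0.173). Irf8, a transcription factor of the myeloid lineage, gave 146 to 561 in mutants and 84.1 to 165 in wild type (0.90, adjusted p = 0.173). The other ligand gene, Il34, did not pass the filter on low signal.

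All 5 tested MHC class II genes, which present antigen to T cells, were positive at 17 dpp (median 0.70) and none was called. H2-Aa differed by 1.198 (limma adjusted p = 0.191) and Cd74, the invariant chain, by 1.04 (adjusted p = 0.0863). At 14 dpp 1 of the 5 was positive, with a median of −0.15. Of 8 complement genes other than C1q, C2 and Cd59a were called higher at 17 dpp, beside 2.03% of all genes, and 7 were positive (median 0.98). C2, a protease of the classical pathway, gave 666 to 1911 in mutants and 375 to 994 in wild type (1.08, adjusted p = 0.0401). Cd59a, which blocks complement on a cell's own surface, gave 619.7 to 1267 in mutants and 333 to 701 in wild type (0.93, adjusted p = 0.0316).

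Of 13 phagocytosis receptors and ligands, all were positive at 17 dpp (median 0.77), and Mertk and Stab1 were called higher, beside 2.03% of all genes. Mertk, a receptor for dying cells on macrophages and Sertoli cells, gave 957 to 1164 in mutants and 571 to 881 in wild type (0.71, limma adjusted p = 0.0233). Stab1, a scavenger receptor of macrophages and sinusoidal endothelium, gave 205 to 468 in mutants and 74.1 to 182 in wild type (1.30, adjusted p = 0.0147). With the array set as a block, 8 of the 13 were called higher, beside 14.4% of all genes. Of 7 tested cytokine and chemokine genes none was called and 5 were positive (median 0.29). Tgfb1 had the largest difference (3.03 ± 1.05, adjusted p = 0.112), with 4 of 5 mutant arrays and 1 of 5 wild-type arrays above their 40th percentile. Il6, Il10, Ccl2, Ccl3, Cxcl2, Nos2 and Arg1, which mark activated macrophages, did not pass the filter.

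Markers of other leukocytes were at the dim end of the arrays. Cd3d, Cd3g, Ncr1 and Nkg7 of T and NK cells, Cd79a and Cd79b of B cells, and S100a8, S100a9, Camp, Cpa3, Mcpt4 and Cma1 of granulocytes and mast cells did not pass the filter. The summed signal of the 4 tested T and NK genes at 17 dpp was 128 to 533 in mutants and 68.2 to 335 in wild type. That of the 3 tested B cell genes was 116 to 423 in mutants and 110.4 to 363 in wild type, and that of the 3 tested granulocyte and mast cell genes was 74.2 to 322 in mutants and 119.6 to 207 in wild type. Cd8a, 1 of these 4 T and NK genes, was called higher beside 2.03% of all genes (1.898 ± 0.53, limma adjusted p = 0.0426), at 51.2 to 258 in mutants and 17.1 to 98.3 in wild type. Blnk differed by 0.44 and the mast cell tryptase gene Tpsb2 by −1.92 (adjusted p = 0.112), neither called.

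Most markers of other somatic cells had positive differences at 17 dpp, and none was called. All 10 Sertoli genes were positive (median 0.76), and their summed signal was 41536 to 55939.8 in mutants and 25401 to 44228 in wild type. Of 6 tested Leydig genes 5 were positive (median 0.70), of 8 endothelial genes 6 (median 0.41) and of 6 peritubular myoid genes 6 (median 0.52). The largest differences or lowest p-values were those of Aqp8 (1.28) and Dhh (1.16) of Sertoli cells, Cyp17a1 (1.40) and Hsd3b1 (0.84) of Leydig cells, Eng (1.61) of endothelium, and Cnn1 (1.19) and Acta2 (0.42) of peritubular cells. The summed signal of the 10 macrophage genes at 17 dpp was 6810 to 11294 in mutants and 3530 to 7278 in wild type, and at 14 dpp 6205 to 9436 in mutants and 5325 to 7572 in wild type. The part of somatic cells as a whole in the macrophage difference was not tested.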

How the data were processed

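Total RNA of homogenized testes was labelled with biotin and hybridised to Affymetrix arrays, per the labels' protocols. Each deposited value is a MAS5 signal intensity (linear scale, 1 per probe set and array), with MAS5 named by the submitters' processing notes; its version is not given. Detection calls were not used here. The trimmed mean, leaving out 2% of values at each end, was about 500 on 11 arrays and lower on the 7 arrays of set 3, for a reason not given. The number of arrays limits the precision.

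Leaving out 64 control probe sets, those brighter than the 40th percentile of the array on 3 arrays or more were tested. Each gene was read from its brightest such probe set, provided that no other gene shared the annotation. The model, in limma 3.58.1 (R 4.3.3) on log2 signal, had 1 mean for each group and an intensity trend, used the 18 arrays together and adjusted p-values by Benjamini-Hochberg over 34764 probe sets (threshold 0.05, two-sided). Each ± is a standard error. Array sets were told apart by β-actin ratios of 1.9 and 10; fits within sets shared 1 spread, so a lone array was assumed to vary like the others. The procedure was tested on simulated data that held no array sets, so that test does not cover differences between sets.

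The members, lists and alternatives were chosen with earlier results of these data known. The text names all 10 members, list genes past the threshold at 14 or 17 dpp (otherwise those with the largest difference and the lowest unadjusted p), and the 10 genes most like the members. Csf1 and the block calls were named beyond this rule. Of 140 genes in the other lists, 105 were tested. The alternatives changed the filter, scaling, offset, model, probe-set rule, array weights and arrays used. The main model used no pairing. Replicate numbers 1 to 3 at 14 dpp were treated as pairs only in the alternative with the replicate number as a block. The reason was that deviations of same-numbered arrays correlated at 0.283, 0.355 and 0.385, although each pair also lay in 1 array set. Gene names came from the platform annotation, and promoter windows from RefSeq (GRCm38.p6).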

Additional observations from a re-analysis of the deposited data

Results flagged for a closer look

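At 17 dpp the Csf1r signal of 6051 on mutant replicate 3 stood apart from the other 4 mutant arrays, which gave 3385 to 3804. On the log2 scale the gap was larger than Dixon's critical value for 5 samples (0.71 of the group's range). Without this array the Csf1r difference was 0.75 and was not called (limma adjusted p = 0.0949).

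At 17 dpp the Cd68 signal of 38.6 on wild-type replicate 3 stood apart from the other 4 wild-type arrays, which gave 139 to 174. Without this array the Cd68 difference was 0.81 (limma adjusted p = 0.153). Over all probe sets the same array had the lowest median signal of the 18 (88.7), and the summed signal of the 10 macrophage genes was lowest on it too (3530).

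In all, 30 groups of 5 arrays were examined in this way, and chance alone singles out about 1 in 20. Why these arrays stood apart was not tested.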

How the results depend on the processing

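The median difference of the macrophage genes stayed positive at both ages under every alternative run, and no gene was called for the interaction under any of them. The count of genes called at 17 dpp was 1. It was 0 with a common trimmed mean, a common median, quantile normalization, no intensity trend, only the arrays of that age, the two-way model at 0.025, or within set 1. It was 2 within set 3 and 3 with the array set block. Without the set 3 arrays the count is not given, as 1 wild-type array was left at 17 dpp. With 1 replicate left out it was 0 to 3, and 3 without wild-type replicate 1, where 2347 of 34764 probe sets were called higher. At 14 dpp it was 0, and 1 with array weights (C1qb, 0.98, limma adjusted p = 0.016), beside 5.51% of all genes called higher. For the age difference in mutants the count of 1 became 0 with the array set block, within set 1, with the mean of probe sets or with the two-way model at 0.025. With array weights it was 4, of which 2 were higher and 2 lower, beside 10.6% of all genes called higher and 29.1% called lower. With 1 replicate left out it was 0 to 3. The 3 were called without mutant replicate 1 of 17 dpp, where 1559 of 34764 probe sets were called higher and 5392 lower. In wild type the count of 2 became 1 with no filter, a common trimmed mean, a common median (Csf1r by its brightest probe set, called higher) or the array set block. It became 3, all lower, with the stricter filter, where 6176 of 23687 probe sets were called lower, or an offset of 50 (6572 of 34764). With array weights it was 5, all lower, beside 40.4% of all genes called lower. It became 0 with quantile normalization, no trend, the two-way model at either threshold, within set 1 or without set 3, and 0 to 4 with 1 replicate left out. The 4 in wild type, all lower, were called without mutant replicate 4 or wild-type replicate 1 of 17 dpp, where 6988 and 9546 of 34764 probe sets were called lower. The cause of these changes was not tested. At 17 dpp C1qa reversed within set 3 (−0.20). At 14 dpp Cd68 (−0.071), Mrc1 (−0.038) and Lyz2 (−0.026) reversed within set 2. Adgre1 reversed at 14 dpp with a common median (−0.036), the array set block (−0.016), within set 1 (−0.11), the replicate block (−0.065), and without mutant replicate 4 (−0.018) or wild-type replicate 2, in a range of −0.059 to 0.24 with 1 replicate left out. Cd14 reversed at 14 dpp with an offset of 50 (0.075), array weights (0.44), and without mutant replicate 2, mutant replicate 3 (0.0036) or wild-type replicate 3 (0.29), in a range of −0.31 to 0.53 with 1 replicate left out. With the replicate number as a block, 2 genes were called at 17 dpp, Lyz2 (limma adjusted p = 0.014) and C1qc (adjusted p = 0.01), and not Csf1r (adjusted p = 0.0615). Of all 34764 probe sets, 1806 were called higher with that block, against 513 without it. At 14 dpp 0 of the 10 genes were called, where the block changed no call. At 17 dpp the correlations of same-numbered arrays ran from −0.227 to 0.777 and 3 of 10 arrays correlated best with their own number, so the numbers were not taken as pairs. Age comparisons could not be fitted with that block. Dim signal limits C1qa on set 3, Cd14 in wild type at 17 dpp and Cd163 at 14 dpp, where most values lay under the 40th percentile of their arrays.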
